A study of Rattus norvegicus with 14 samples.

Results

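The genes described here are 10 genes of macrophage identity and function: the growth factor Csf1 and its receptor Csf1r, the chemokine receptor Cx3cr1, the lysosomal and lipid-related genes Cd68, Gpnmb and Trem2, the mannose receptor Mrc1, the class A scavenger receptors Msr1 and Marco, and the protease Adamdec1. They were picked by gene symbol, and each matched 1 of the 26319 genes in the count table. All 10 passed the filter on low counts, which kept 18678 genes. The tissue was distal colon of male Wistar rats, taken 72 h after treatment, and the age of the rats is not stated. The 2 control libraries (animals 216 and 217) came from random colon sections of control rats. The deposited protocol says that these rats received the vehicle, whereas the paper calls them untreated. The other 12 libraries came from 6 rats (animals 218 to 223) given 2,4,6-trinitrobenzene sulphonic acid (TNBS) into the colon, with 1 library from an inflamed region and 1 from a non-adjacent uninflamed region of each. No gene was altered in any group. Inflamed against uninflamed regions is written I-UI, inflamed against control I-C, and uninflamed against control UI-C.

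Macrophages of the gut wall are renewed largely from blood monocytes, and their survival depends on Csf1r, the receptor tyrosine kinase that binds Csf1 and Il34. As monocytes mature in the healthy colon they gain Cx3cr1 and the mannose receptor Mrc1, and they clear dead cells and bacteria without strong cytokine release. Scavenger receptors take up modified lipoproteins, cell debris and bacteria, whose lipids and membranes are then handled in lysosomes, the compartment where Cd68 and Gpnmb proteins reside, while Trem2 senses lipids at the cell surface and signals through the adaptor Tyrobp.

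The libraries held 6734968 to 13792657 reads on genes, so that 3 reads, taken as the detection floor, correspond to 0.182 to 0.478 CPM (reads scaled to a common library size). All levels below are CPM scaled by the TMM factors of edgeR (trimmed mean of M values). They are not divided by gene length, so levels are compared between libraries within a gene and not between genes. Factors ran from 0.6301 to 1.24, and the lowest belonged to the uninflamed library of animal 218. Cd68 (5 to 245 reads), Trem2 (7 to 46 reads), Marco (22 to 59 reads) and Cx3cr1 (17 to 260 reads) were counted with few reads in some libraries, which limits the precision of their values. Whole tissue was sequenced, so a change in the number of macrophages and a change in the RNA per cell cannot be told apart.

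In inflamed regions Gpnmb and Cd68 were higher and Adamdec1 was lower than in uninflamed regions, while the other 7 genes did not pass the test. A gene was called changed with an adjusted p under 0.05 (edgeR quasi-likelihood test, Benjamini-Hochberg over all genes tested) and a difference of at least 2-fold. In I-UI 2 of the 10 genes were called higher and 1 lower, where 6.15% of all genes tested were called higher and 6.95% lower. The median log2 difference of the 10 genes was 0.64, against 0.04 over all genes, and 9 of the 10 estimates were above 0. In I-C 4 were called higher (Gpnmb, Cd68, Csf1r and Mrc1) and Adamdec1 was called lower, against 5.93% and 7.79% of all genes, with a median of 1.20 against 0.10 over all genes. In UI-C none of the 10 was called, against 0.145% of all genes, with a median of 0.48 against 0.05. I-C and UI-C share their 2 control libraries, and I-UI shares libraries with both.

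**Figure D1:**
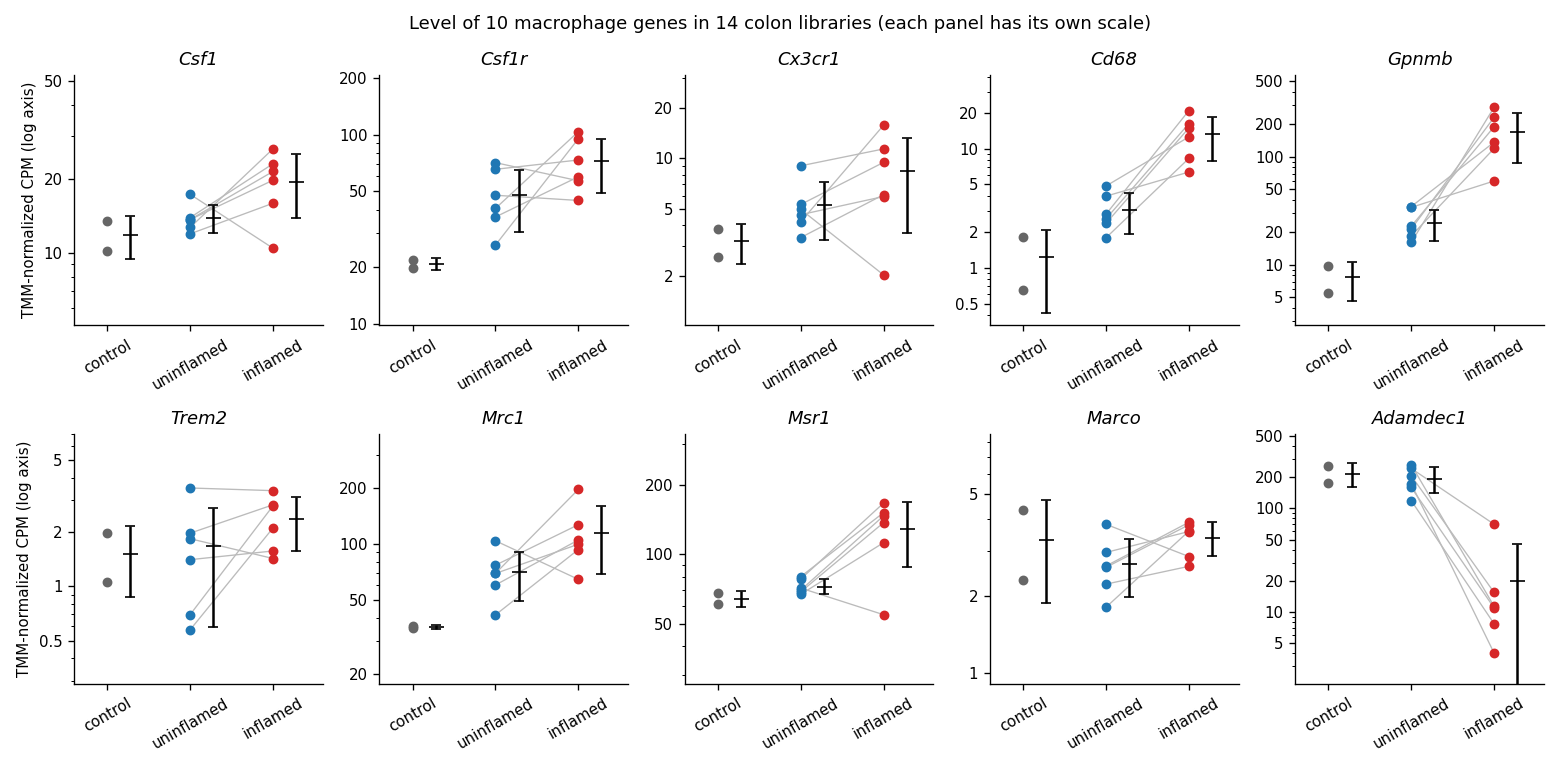
TMM-normalized CPM on log axes, 1 panel per gene. Points are libraries (2 control, 6 uninflamed, 6 inflamed), grey lines join the regions of 1 animal, and black bars give the mean ± SD, cut at the axis for Adamdec1 in inflamed regions. For Gpnmb and Cd68 every inflamed library lies above every uninflamed one, and for Adamdec1 every inflamed library lies below.

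Csf1, the growth factor of the macrophage lineage, did not pass the test in any comparison. Its level was 10.2 and 13.5 CPM in the controls, 11.99 to 17.4 (median 13.7) in uninflamed regions and 10.48 to 26.6 (median 20.7) in inflamed regions. The inflamed library of animal 218 was the lowest of its group and lay below all uninflamed libraries, while the other 5 inflamed libraries were each higher than the uninflamed library of the same animal. The log2 difference in I-UI was 0.50 (SE 0.20, adjusted p = 0.0787) and in I-C 0.73 (SE 0.29, adjusted p = 0.104). With the library total alone the I-C difference was 1.40 and was called (adjusted p = 0.01676).

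Csf1r, the receptor, was higher in inflamed regions than in controls. It stood at 19.6 and 21.7 CPM in the controls, at 25.98 to 71.0 (median 44.2) in uninflamed regions and at 44.8 to 104 (median 66.5) in inflamed regions. All 12 libraries of TNBS-treated rats lay above both controls, and the uninflamed and inflamed ranges overlapped over much of their width. Of all genes tested, 13.9% were higher without overlap in I-C and 14.3% lower. In I-C the log2 difference was 1.81 (SE 0.40, adjusted p = 0.00780), a 3.50-fold rise. This call rests on both controls, since without animal 216 the adjusted p was 0.07005 and without animal 217 it was 0.0907. In I-UI the estimate was 0.60 (SE 0.25, adjusted p = 0.101), and 4 of 6 animals were higher in the inflamed region.

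Il34, the other ligand of Csf1r, fell in inflamed regions and was named after its values were seen. It ranged from 5.42 to 9.55 CPM in uninflamed and from 2.62 to 4.30 CPM in inflamed regions, with no overlap and a lower value in the inflamed region of 6 of 6 animals. Its log2 difference was -1.16 in I-UI (SE 0.19, adjusted p = 0.000661) and -1.18 in I-C (adjusted p = 0.00560). With scaling by the library total alone, it was -0.88 in I-UI and missed the 2-fold threshold. In I-C the adjusted p was 0.0550 without animal 216, and with the library total alone the difference was -0.56. Csf1 and Il34, which bind the same receptor, thus had estimates of opposite sign, and the Csf1 estimate did not pass the test.

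Of the other CSF-1 axis and macrophage lineage genes, 14 could be tested, and in I-UI 7 were called higher and 4 lower, with a median log2 difference of 1.12. The 4 with the smallest adjusted p all rose. Cebpb, a transcription factor of inflammatory myeloid cells, differed by 2.78 (SE 0.35, adjusted p = 0.000167), and Runx1, a factor of blood cell development, by 1.54 (SE 0.20, adjusted p = 0.000209). Spi1, which encodes PU.1, the master factor of the myeloid lineage, differed by 1.63 (SE 0.24, adjusted p = 0.000394), and Csf2rb, the shared signalling chain of the GM-CSF and IL-3 receptors, by 2.84 (SE 0.41, adjusted p = 0.000423). These 4 genes are also used by granulocytes. Besides Il34, the genes called lower were Nr1h3, Pparg and Klf4, which colon epithelium also expresses. Nr1h3 ranged from 7.02 to 125 CPM in uninflamed and from 4.58 to 8.57 CPM in inflamed regions. Its controls were at 6.69 and 7.975 CPM, and in I-C it was not called (-0.21, adjusted p = 0.901). The count of lower calls in I-UI was 2 in the fit with animal as a block and 2 with the library total alone.

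Cx3cr1, the receptor of the membrane-bound chemokine fractalkine, did not pass the test in any comparison. Its level was 2.59 and 3.80 CPM in the controls, 3.37 to 9.03 (median 4.79) in uninflamed regions and 2.02 to 15.8 (median 7.77) in inflamed regions. Its inflamed libraries spanned 7.81-fold, from below every other library (animal 219) to above every other (animal 223). On the log2 scale it differed by 0.69 in I-UI (SE 0.37, adjusted p = 0.196) and 1.41 in I-C (SE 0.59, adjusted p = 0.118). Without animal 219 the I-C difference was 1.61 and passed (adjusted p = 0.0405).

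The ligand of Cx3cr1 was called lower in both inflamed comparisons. Cx3cl1, which encodes fractalkine, stood at 22.7 and 28.6 CPM in the controls, uninflamed regions gave 9.07 to 15.9 and inflamed regions 1.82 to 8.06, and the 3 ranges did not overlap. It fell by 1.52 on the log2 scale in I-UI (SE 0.30, adjusted p = 0.00227) and by 2.71 in I-C (adjusted p = 0.000810). Of the 2 sheddases that release it, Adam17 differed by 0.54 in I-UI (adjusted p = 0.00676), under the 2-fold threshold, and Adam10 by -0.09 (adjusted p = 0.749), a difference whose sign changed with the scaling. Fractalkine is made by epithelium, endothelium and neurons, and epithelial markers also fell in inflamed regions, with values given below beside Adamdec1. Their part in the Cx3cl1 result was not tested.

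Gpnmb, a transmembrane glycoprotein of macrophages with loaded lysosomes, showed the greatest rise of the 10 genes. It was at 5.51 and 9.80 CPM in the controls, 16.1 to 34.7 (median 22.1) in uninflamed regions and 59.8 to 288 (median 163) in inflamed regions. The 3 groups did not overlap (4.32% of all genes were higher without overlap in I-UI and 5.21% lower), and the inflamed region was higher in 6 of 6 animals, by 1.76-fold in animal 218 and by 17.8-fold in animal 223. In I-UI the log2 difference was 2.80 (SE 0.35, adjusted p = 0.000145), which is 6.96-fold, and 0.926% of all genes tested had a larger one. In I-C it was 4.47 (SE 0.62, adjusted p = 0.000810), which is 22.2-fold.

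Cd68, a heavily glycosylated protein of lysosomal membranes and a common tissue marker of macrophages, rose as well. The controls gave 0.656 and 1.83 CPM, uninflamed regions 1.78 to 4.85 (median 2.69) and inflamed regions 6.35 to 20.8 (median 13.7). Every inflamed library lay above every uninflamed one, and the highest was that of animal 219. The log2 difference was 2.11 in I-UI (SE 0.33, adjusted p = 0.000564), a 4.31-fold rise, and 3.35 in I-C (SE 0.57, adjusted p = 0.00195). The I-UI calls of Gpnmb and Cd68 held in all alternatives tried.

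The promoters of Gpnmb and Cd68 are shown because these 2 genes were called higher in both I-UI and I-C. The sequences are from RefSeq (build GRCr8, which is not the Rnor_5.0 build of the counts) and run from 250 bases before to 50 bases after the annotated start, on the strand of the gene. Gpnmb lies on the plus strand at chr4:79340878-79341177 and Cd68 on the minus strand at chr10:54882392-54882691. Capitals mark matches, on either strand, to GAGGAA (the core of a PU.1 site), TGANTCA (an AP-1 site) and TCATGTG (the M-box bound by MITF family factors of lysosome biogenesis).
Gpnmb: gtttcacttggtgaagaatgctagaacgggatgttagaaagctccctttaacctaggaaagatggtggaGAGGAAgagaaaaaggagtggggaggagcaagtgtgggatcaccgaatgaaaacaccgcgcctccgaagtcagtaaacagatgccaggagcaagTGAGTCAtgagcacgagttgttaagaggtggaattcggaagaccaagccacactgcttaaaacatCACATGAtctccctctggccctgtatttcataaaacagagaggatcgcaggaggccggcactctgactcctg
Cd68: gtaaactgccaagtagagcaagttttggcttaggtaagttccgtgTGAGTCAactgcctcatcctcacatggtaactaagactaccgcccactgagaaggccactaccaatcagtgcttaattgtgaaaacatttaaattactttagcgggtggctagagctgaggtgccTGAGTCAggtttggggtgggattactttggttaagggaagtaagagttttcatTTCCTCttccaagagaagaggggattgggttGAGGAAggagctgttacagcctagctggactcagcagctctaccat

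The Gpnmb promoter held 1 match to each of the 3 motifs, with the M-box letters beginning 22 bases before the start. The Cd68 promoter held 2 AP-1 matches, at 205 and 80 bases before the start, and 2 PU.1 matches on either side of it. No 2 matches overlapped. Of the 10 genes, 7 had a promoter in the reference table. Of these 7, 6 matched GAGGAA (27.6% of all 33469 promoters do), 3 matched TGANTCA (Gpnmb, Cd68 and Trem2, against 7.33% of all) and Gpnmb alone matched TCATGTG (against 3.56% of all). Csf1r and Mrc1 held 2 PU.1 matches each, and Cx3cr1 held none of the 3 motifs in this window. A match describes the letters only, and binding was not measured.

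Trem2, the lipid-sensing receptor, was counted with few reads and did not pass the test in any comparison. It was at 1.06 and 1.97 CPM in the controls, 0.575 to 3.50 (median 1.62) in uninflamed regions and 1.43 to 3.39 (median 2.45) in inflamed regions. The 3 ranges overlapped, and 4 of 6 animals were higher in the inflamed region. It differed by 0.55 on the log2 scale in I-UI (SE 0.39, adjusted p = 0.322) and 0.66 in I-C (SE 0.58, adjusted p = 0.485), and neither passed the test.

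Of 21 other genes of TREM2 signalling and lipid handling, 13 were called higher and 1 lower in I-UI, with a median of 1.14, and 15 were called higher and 1 lower in I-C. Without control 216 the I-C counts were 5 and 0, and without control 217 only 4 were called higher. Trem1, the related receptor that amplifies inflammation on neutrophils and monocytes, differed by 4.28 in I-UI (SE 0.43, adjusted p = 3.802e-05). Plin2, the coat protein of lipid droplets, differed by 3.01 (SE 0.33, adjusted p = 6.755e-05), and Spp1, which encodes the secreted protein osteopontin, by 5.32 (SE 0.59, adjusted p = 8.341e-05). Ctsl, a lysosomal protease, differed by 2.04 (SE 0.27, adjusted p = 0.000199). Tyrobp, the adaptor of Trem2 and of several other myeloid receptors, ranged from 3.46 to 11.6 CPM in uninflamed and from 19.6 to 65.0 CPM in inflamed regions, a log2 difference of 2.55 (SE 0.34, adjusted p = 0.000228). The gene called lower in I-C was Cd9 (-1.60, SE 0.28, adjusted p = 0.00228). In I-UI it was Lgals3, which colon epithelium expresses strongly (-1.37, SE 0.37, adjusted p = 0.0144). Without animal 223 it was -1.09 (adjusted p = 0.0838), and with the library total alone -1.08 (adjusted p = 0.05804).

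Mrc1, the mannose receptor of tissue macrophages, was higher in inflamed regions than in controls. The controls gave 35.2 and 36.2 CPM, uninflamed regions 41.5 to 104 (median 69.4) and inflamed regions 64.5 to 197 (median 102). As for Csf1r, all 12 libraries from TNBS-treated rats exceeded both controls, whereas inflamed and uninflamed libraries overlapped. The log2 difference was 1.68 in I-C (SE 0.40, adjusted p = 0.0102), a 3.21-fold rise, and 0.71 in I-UI (SE 0.25, adjusted p = 0.0528). Without animal 216 the I-C adjusted p was 0.09117, and without animal 217 it was 0.101.

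Msr1, a class A scavenger receptor for modified lipoproteins, was the most even of the 10 genes in uninflamed regions. It ranged from 60.9 to 67.9 CPM in the controls and from 67.1 to 80.1 (median 70.7) in uninflamed regions, a 1.19-fold range. In inflamed regions it ranged from 54.8 to 167 (median 142). Of the 6 inflamed libraries, 5 lay at 112 CPM or more, above all uninflamed ones, and that of animal 218 was the lowest of all 14. The log2 difference was 0.82 in I-UI (SE 0.21, adjusted p = 0.0110) and 0.99 in I-C (SE 0.32, adjusted p = 0.0433). Both passed the threshold on p, and at 1.77-fold and 1.99-fold both missed the threshold on size. Without animal 218 the I-C difference was 1.15 and was called (adjusted p = 0.00198). With the library total alone both were called, at 1.08 in I-UI and 1.63 in I-C.

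Marco, the class A scavenger receptor of alveolar, splenic and peritoneal macrophages, was low throughout. It was at 2.31 and 4.33 CPM in the controls, uninflamed regions gave 1.81 to 3.82 (median 2.61) and inflamed regions 2.62 to 3.89 (median 3.59). The inflamed range lay within that of the controls. It differed by 0.36 on the log2 scale in I-UI (SE 0.22, adjusted p = 0.263) and 0.04 in I-C (SE 0.32, adjusted p = 0.946), and the sign of the I-C value changed without animal 221 or without control 216.

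Among 18 other scavenger receptors, 3 were called higher in I-UI and none lower, with a median log2 difference of 0.38. In I-C 6 were called higher and none lower, but 2 were higher without control 216 and 3 without control 217, and 1 was lower without control 217 or animal 222. Olr1, the receptor of oxidised low-density lipoprotein, rose from 1.71 to 6.21 CPM in uninflamed to 14.7 to 83.7 CPM in inflamed regions, a log2 difference of 3.83 (SE 0.45, adjusted p = 0.000120). Cd36, which takes up fatty acids and oxidised lipoprotein, differed by 1.33 (SE 0.23, adjusted p = 0.000966). Scarb1, the receptor of high-density lipoprotein, differed by 0.67 (SE 0.16, adjusted p = 0.00556), under the 2-fold threshold. Lrp1, an endocytic receptor of many cell types, differed by 1.08 (SE 0.29, adjusted p = 0.0124), and this call ended under 4 alternatives, among them the fit with animal as a block, where the difference was 0.99 (adjusted p = 0.05182). It also ended with limma-voom (0.94), without animal 222 (0.98) and without animal 223 (0.93).

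**Figure D2:**
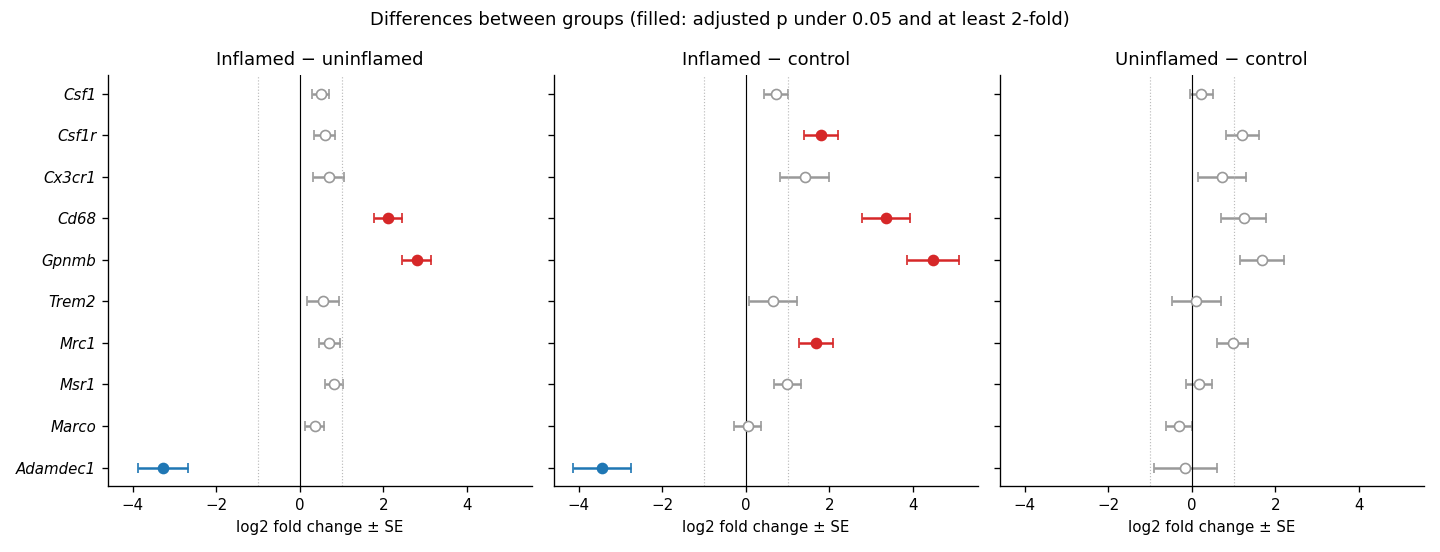
Log2 fold change with its SE for each of the 10 genes in I-UI, I-C and UI-C (edgeR, 14 libraries in 1 fit). Filled points have an adjusted p under 0.05 and at least a 2-fold difference (dotted lines), red for higher and blue for lower, and open points do not. Gpnmb and Cd68 are filled on the right in both inflamed comparisons, Adamdec1 on the left, and no point is filled in the uninflamed comparison.

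Adamdec1 fell in the inflamed regions of all 6 animals. This secreted metalloprotease was first described in dendritic cells and macrophages of the gut lamina propria, and in human and mouse colon it is also made by fibroblasts. Its level was 177 and 257 CPM in the controls, 119 to 264 (median 190) in uninflamed regions and 4.00 to 70.3 (median 11.1) in inflamed regions. Each inflamed library lay below all 8 control and uninflamed libraries, and the region of animal 221 stood far above the other 5 inflamed ones, which ended at 15.4 CPM. Within animals the inflamed region held 0.0232 (animal 223) to 0.289 (animal 221) of the level of the uninflamed one. The log2 difference was -3.28 in I-UI (SE 0.59, adjusted p = 0.00146) and -3.44 in I-C (SE 0.70, adjusted p = 0.00529). The I-UI call held in all alternatives tried, whereas without control 216 the I-C value was -3.14 with an adjusted p of 0.0501. Of all genes tested, 99.8% had a higher log2 difference in I-UI.

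Epithelial markers fell in the same libraries. All 9 of the epithelial markers tested were called lower in I-UI, and 5 of 9 when any 1 of animals 218, 219, 220, 222 and 223 was left out, without a filter on low counts, or with the library total alone. In I-C 4 of the 9 were called lower. The I-C count was 2 without animal 219 or 222, 9 without animal 221 and 0 with the library total alone. Summed over the list, controls held 4074 and 7857 CPM, uninflamed regions 4273 to 8419 and inflamed regions 219 to 4884, and no marker was at 0 in a whole group. The highest inflamed sum was in animal 221, the animal with the highest inflamed Adamdec1 level, and the next highest, 1431 CPM, was in animal 222. The lowest sums, 219 and 247 CPM, were in animals 220 and 223, which also had the lowest Adamdec1 levels. Of the 8 fibroblast markers, 3 were called higher and none lower in I-UI, and their sum was 1744 and 1891 CPM in the controls, between 1704 and 5383 CPM in uninflamed regions and between 2618 and 9163 CPM in inflamed regions. The fibroblast count was 5 without animal 218 and 1 without any 1 of animals 220, 222 and 223. The 8 dendritic cell markers had a median log2 difference of 0.21 in I-UI, and the smallest adjusted p among them was 0.0658 (Itgae, -0.60). Itgae was lower in the inflamed region of 6 of 6 animals and was called lower in I-C (-1.165, adjusted p = 0.01585). In I-UI Xcr1 (-0.66) was below 0 as well, whereas Flt3, Zbtb46, Clec9a, Batf3, Cd207 and Ccr7 lay above 0 (0.07 to 1.79). None of the 8 was called in I-UI. The part of these cell types in the fall of Adamdec1 was not tested.

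**Figure D3:**
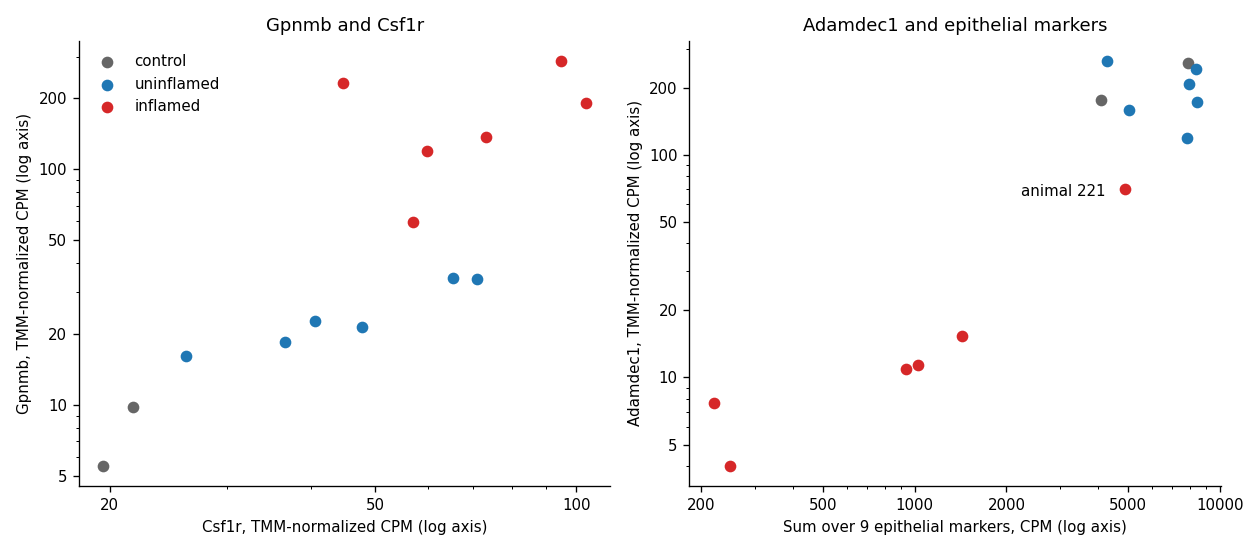
Left, Gpnmb against Csf1r, and right, Adamdec1 against the sum of 9 epithelial markers, all in TMM-normalized CPM on log axes, with 1 point per library. On the left the inflamed libraries lie above the uninflamed ones at like Csf1r levels, and on the right inflamed libraries fall to the lower left, with animal 221 (70.3 CPM of Adamdec1) nearest to the others.

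The levels of Gpnmb, Cd68 and Mrc1 were also set against that of Csf1r in the same library. The ratio of Gpnmb to Csf1r CPM was 0.282 and 0.451 in the controls, 0.450 to 0.621 in uninflamed regions and 1.05 to 5.19 in inflamed regions. The ratio of Cd68 to Csf1r was 0.0486 to 0.0906 in uninflamed and 0.112 to 0.464 in inflamed regions. Neither ratio overlapped between the 2 regions, but the levels of Gpnmb and Cd68 themselves already did not overlap there. The share of all genes with such a separation was not computed. The ratios of Msr1, Marco, Trem2, Cx3cr1 and Csf1 to Csf1r overlapped between the regions. That of Adamdec1 was lower in inflamed regions, without overlap. The ratio of Mrc1 to Csf1r had medians of 1.73 in control, 1.60 in uninflamed and 1.56 in inflamed regions, and its inflamed range of 0.983 to 2.84 enclosed the other groups. These ratios are not scaled for gene length, so only their differences between libraries carry meaning, and they were not tested.

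In uninflamed regions against controls none of the 10 genes was called by edgeR's quasi-likelihood test, its exactTest, DESeq2 or limma-voom. At an unadjusted p under 0.05 there were 4, namely Gpnmb, Csf1r, Mrc1 and Cd68, against 1660 of all 18678 genes tested. In edgeR's fit Gpnmb differed by 1.68 (SE 0.52, adjusted p = 0.314), Csf1r by 1.21 (SE 0.39, adjusted p = 0.331) and Mrc1 by 0.98 (SE 0.38, adjusted p = 0.464). For these 3 genes all 6 uninflamed libraries lay above both controls, which held for 5.22% of all genes (6.16% had all below), and none of the 10 had all 6 below both. Cd68 differed by 1.24 (SE 0.54, adjusted p = 0.525), and its ranges overlapped. Msr1 (0.17), Csf1 (0.23), Trem2 (0.11) and Adamdec1 (-0.16) had estimates smaller than their SE, and the sign of the Trem2, Adamdec1 and Marco (-0.31) estimates changed with a library or the scaling. In simulated counts of this comparison, 12.1% of 2-fold and 67.7% of 4-fold changes reached an adjusted p under 0.05, so most 2-fold changes were missed there. The changed genes were drawn at random over all levels, so these shares are not rates for any 1 of the 10 genes. The absence of a call does not show that a gene did not differ.

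The 6 treated animals did not respond alike. Of the 10 genes, 9 were higher in the inflamed region in each of animals 220, 221, 222 and 223, 6 in animal 219 and 3 in animal 218. The genes with all 6 animals in 1 direction were Gpnmb and Cd68 (higher, as for 10.7% of all genes) and Adamdec1 (lower, as for 13.3% of all genes). Animal 218 had the lowest inflamed level of 5 genes (Gpnmb, Cd68, Mrc1, Msr1 and Csf1), and its median difference over the 10 genes was -0.35, against 1.46 in animal 223. The direction in animal 218 depends on the scaling: with the library total alone 7 of its 10 genes were higher, while the counts of the other 5 animals stayed as they were. Among inflamed libraries the summed neutrophil markers were lowest in animals 221 and 218, at 441 and 480 CPM against 1102 to 2351 CPM in the other inflamed libraries.

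**Figure D4:**
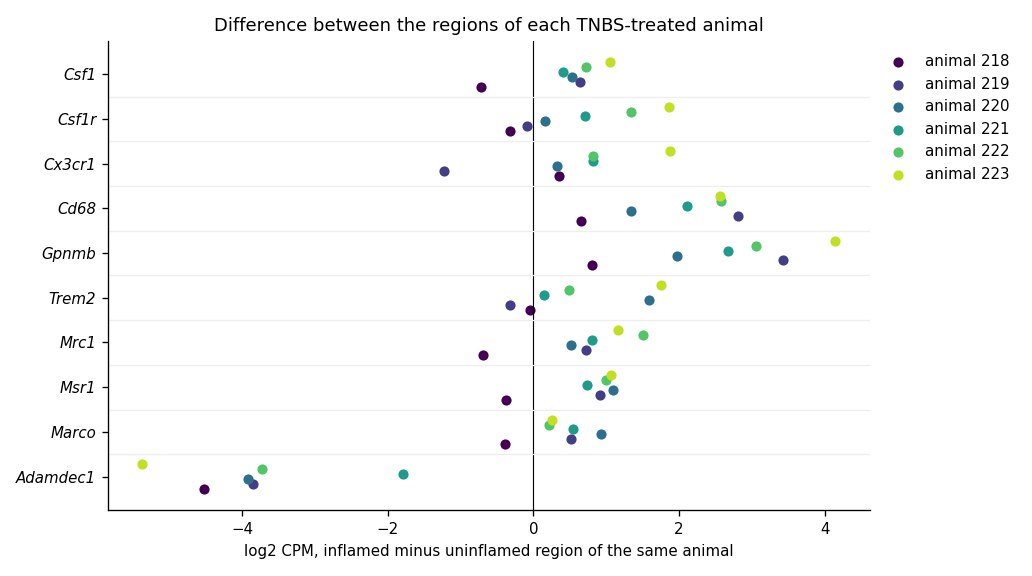
Difference in log2 CPM between the inflamed and the uninflamed region of the same animal, 1 point per animal and gene. All 6 points lie right of 0 for Gpnmb and Cd68 and left of 0 for Adamdec1, and animal 218 is left of 0 for 7 of the 10 genes.

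The profiles over the 14 libraries place the 10 genes in different company. Likeness was measured as the root mean square difference between centred log2 CPM profiles, over 13539 genes whose mean log2 CPM was 1 or more, and is a description without a test. Among the closest to Cd68 were Tyrobp (0.32) and Mpeg1 (0.36), and closest to Gpnmb were Tyrobp (0.40), Mgp (0.44) and C5ar1 (0.47), which apart from the matrix protein Mgp are genes of myeloid cells. Closest to Csf1r were Cfp (0.25), which encodes properdin, Sirpa (0.27), a receptor of myeloid cells, and Igf1 (0.27). Closest to Mrc1 were Mmp2 (0.17), the soluble scavenger receptor gene Ssc5d (0.27) and Spon1 (0.27), of which Mmp2 and Spon1 encode proteins of the extracellular matrix. Closest to Adamdec1 were Ugt2b10 (0.33), Cdx2 (0.39), the intestinal epithelial transcription factor, and Mep1a (0.42), an enterocyte brush border protease. Msr1 (B4galt6, 0.14), Csf1 (Large, 0.16) and Marco (Plb1, 0.11) varied little, so many genes lie near them. The nearest neighbours of Trem2 (Gsk3b, 0.40) and Cx3cr1 (Amer1, 0.50) were farther than those of Msr1, Csf1 and Marco. That of Trem2 was about as near as Tyrobp was to Gpnmb (0.40). Among the 10 genes themselves the closest pairs were Msr1 with Csf1 (0.26), Csf1r with Mrc1 (0.37) and Marco with Csf1 (0.40). Mrc1 with Csf1 (0.44) and Mrc1 with Msr1 (0.46) followed, ahead of Cd68 with Gpnmb (0.49).

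Of 26 other macrophage markers tested, 7 were called higher and none lower in I-UI, with a median log2 difference of 0.25. Without animal 218 or 221, 1 was called lower in I-UI. Estimates below 0 included Cd86 (-0.97, adjusted p = 0.0220, under the 2-fold threshold), C1qa (-0.54), C1qb (-0.42), C1qc (-0.60) and Siglec1 (-0.45). For C1qa the inflamed region was lower in 6 of 6 animals. In I-C 10 were higher and 1 lower. Without control 217 the I-C counts were 5 and 0. The lower call in I-C was Cd4, at 11.2 CPM in one control and 351 CPM in the other, and it was also lost with limma-voom. The 4 with the smallest adjusted p were Fcgr1a, the high-affinity receptor of immunoglobulin G (2.34, SE 0.30, adjusted p = 0.000163), the integrins Itgax (1.83, SE 0.24, adjusted p = 0.000209) and Itgam (2.09, SE 0.28, adjusted p = 0.000213), and Mpeg1, the pore-forming perforin-2 of phagocytes (1.81, SE 0.24, adjusted p = 0.000228).

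Monocyte markers and neutrophil markers rose in the same libraries as Gpnmb and Cd68. Of 10 monocyte markers tested, 6 were called higher in I-UI and none lower, with a median of 2.35. Ccl2, the chemokine that recruits monocytes, differed by 3.94 (SE 0.44, adjusted p = 8.062e-05). The matrix genes Thbs1 (3.53, SE 0.39, adjusted p = 6.755e-05) and Vcan (3.63, SE 0.49, adjusted p = 0.000254) are made by fibroblasts as well as monocytes. Summed, the monocyte markers gave 536 and 644 CPM in the controls, while uninflamed regions gave 522 to 935 and inflamed regions 1141 to 6470. Fn1, which encodes fibronectin, Vcan and Thbs1 had the highest inflamed means (1891, 979 and 658 CPM), so the sum mostly follows them. Plac8 (0.001) and Chil3 (-0.015) hardly differed in I-UI. Of 9 neutrophil markers tested, 8 were called higher, and their sum was 24.5 and 28.2 CPM in the controls, from 21.6 to 39.9 in uninflamed regions and from 441 to 2351 in inflamed regions. Fpr1 was at 0 in both controls, and Elane, which was too low to test, was at 0 in all uninflamed libraries. Of the remaining cell type lists, T and NK cell markers gave 1 higher and 1 lower call of 9 tested (3 higher and none lower without animal 220), endothelial markers 2 higher of 8, smooth muscle markers 4 lower of 6 (2 without any 1 of animals 216, 217 and 219 to 223), and mast cell and osteoclast markers 1 lower of 4 (2 without animal 218 and 0 without animal 219). The part of monocytes or neutrophils in the values of the 10 genes was not tested.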

How the data were processed

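Total RNA from rat colon was depleted of ribosomal RNA and sequenced on a SOLiD instrument (reads of 50 bases). The deposited values are raw read counts per gene, which the authors made with CLC Genomics Workbench 7.5.1 on Rnor_5.0 with Ensembl release 77 after removing ribosomal reads, without normalization. A read could match up to 10 places, so counts of near-identical genes are uncertain.

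Counts were tested in R 4.3.3 with edgeR 4.0.16 (robust quasi-likelihood fit, TMM factors, filterByExpr with a minimum count of 10), with all 14 libraries in 1 fit of 3 groups. The SE is the log2 fold change divided by the square root of F. Log2 CPM used a prior count of 2. Alternatives were DESeq2 1.42.0, limma-voom (limma 3.58.1), exactTest, other scalings, no filter, a block for the animal, and leaving out each animal. Scaling by the library total alone was added after the TMM factors were seen.

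The regions are paired by animal number in the labels. Deviations of the 2 libraries of an animal from their group means correlated at -0.12 to 0.19, and 4 of 6 libraries matched their own number best. Each library is 1 tissue sample of 1 animal.

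The 10 genes and all gene lists were chosen with earlier results of these data known. Of 164 list symbols, 157 were found by name, 2 under an older symbol and 5 were not found. Of each pathway, macrophage and monocyte list the text names the 4 genes of lowest adjusted p in I-UI, and for each of the 10 genes its 3 nearest profiles (for 5 of them the nearest alone is printed). Some genes that this rule names are not reported here. Il34, Tyrobp within its list, Lgals3, Cd9, Nr1h3, Pparg, Klf4, Cd4, Itgae, Fpr1 and Elane were named after their values were seen. The same holds for Cd86, C1qa, C1qb, C1qc, Siglec1, Fn1, Plac8 and Chil3, and for the dendritic cell markers besides Itgae. On simulated counts, 87.9%, 62.1% and 67.7% of 4-fold changes reached an adjusted p under 0.05 in I-UI, I-C and UI-C. Changes were given to randomly drawn genes, far fewer than were called in I-UI and I-C, so the shares need not hold for those comparisons.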

Additional observations from a re-analysis of the deposited data

Results flagged for a closer look

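Within the uninflamed and the inflamed group, the levels of the 10 genes were searched for 1 library far from the other 5, which makes 20 groups, and 3 were found where chance gives about 1 in 20. Adamdec1 was at 70.3 CPM in the inflamed region of animal 221, against 4.00 to 15.4 CPM in the others. Cx3cr1 was at 9.03 CPM in the uninflamed region of animal 220, against 3.37 to 5.31 CPM. Csf1 was at 17.4 CPM in the uninflamed region of animal 218, the library with the lowest TMM factor, against 11.99 to 13.96 CPM.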

How the results depend on the processing

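All 10 I-UI results of the genes kept their call and direction in every alternative other than the library total alone, among them the fit with animal as a block, where 2 genes were called higher and 1 lower as before (Gpnmb 2.71, Cd68 2.09, Adamdec1 -3.901). With the library total alone, the median of all genes moved to 0.28 in I-UI, 0.72 in I-C and 0.43 in UI-C, and that of the 10 genes to 0.90, 1.86 and 0.89, and 3 genes were called higher in I-UI. In I-C the count of genes called higher ran from 2 (without either control) to 5 (without animal 218 or 219), and was 7 with the library total alone, where Msr1, Cx3cr1 (2.08) and Csf1 (1.40) were added. The count called lower ran from 0 (without control 216) to 1. Signs changed for Marco in I-C (-0.352 to 0.546 with 1 animal left out) and in UI-C (-0.707 to 0.199, and 0.082 with the library total), for Trem2 in UI-C (-0.288 to 0.602, and -0.106 with limma-voom), for Adamdec1 in UI-C (-0.404 to 0.138, and 0.142 with the library total) and for Adam10 in I-UI (-0.224 to 0.095, and 0.116 with the library total). The cause was not tested. Over all genes, I-UI gave 1148 higher and 1298 lower, and 1831 and 765 with the library total alone. I-C gave 1107 higher and 1455 lower, 3372 and 470 with the library total, and 248 to 334 higher and 671 to 762 lower without 1 control. UI-C gave 0 higher and 27 lower, 12 and 113 with exactTest, 39 and 112 with DESeq2, 6 lower with limma-voom, 0 lower with the library total, and with 1 animal left out 0 to 37 higher and from 0 (animal 219, 220, 222 or 223) to 151 (animal 218) lower. Only 2 controls and few reads on Cd68, Trem2 and Marco limit the precision.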
